A study of Mus musculus with 6 samples.

Results

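The subject is the set of variable segments of the T cell receptor beta chain, the genes whose mouse symbol starts with Trbv. The count files were matched by Ensembl identifier to GENCODE M21 on GRCm38, which gave 35 Trbv genes among 55573 gene identifiers. Each was taken as a share of the Trbv counts of its own library. The libraries came from splenic regulatory T cells (Tregs), a CD4 lineage that holds immune responses in check, sorted out of bi-parental bone marrow chimeras. In a chimera, transplanted marrow replaces the host's own blood-forming cells. There were 3 libraries from Nfkb2-/- Tregs and 3 from wild type Tregs. Nfkb2 encodes p100, an NF-kB family member that is cut to p52. The labels name the knockout as Nfkb2-/- with no promoter or Cre, and they do not state strain, sex or age. They call the samples biological repeats without saying whether each came from another animal. Whether Nfkb2-/- and wild type Tregs came from the same chimeras is thus not known here. The main tests treat the libraries as unpaired, and their p-values measure the spread between these libraries. Cells of both genotypes were rested in medium before lysis.

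A T cell makes its beta chain gene by joining one variable (V), one diversity (D) and one joining (J) segment ahead of a constant gene, so a mature T cell clone usually uses a single V segment. The V segment encodes some of the part of the chain that contacts peptide and MHC. Bulk RNA from many cells shows how often each V segment is used, weighted by how much RNA each cell makes. Fewer cells that use a segment and less RNA per cell cannot be told apart in these bulk libraries. In mice, some V segments are favoured by particular T cell subsets (invariant NKT cells use Trbv13, Trbv29 and Trbv1 segments), and endogenous superantigens remove cells with certain segments in some strains.

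The libraries held 12005273, 14359439 and 12763638 counts in Nfkb2-/- replicates 1 to 3, and 17278521, 12535383 and 12499343 counts in wild type replicates 1 to 3. The Trbv counts among them were 3376, 3804 and 3646 in Nfkb2-/- Tregs, and 3170, 3267 and 3986 in wild type Tregs. The targeted gene Nfkb2 stood at 268, 323 and 270.2 CPM (depth-scaled counts, on TMM-scaled library sizes) in Nfkb2-/- Tregs, against 557, 544 and 555 CPM in wild type Tregs (log2 fold change -0.94, edgeR adjusted p = 0.0203). One library, wild type replicate 1, was unlike the rest, with log2 CPM correlations across genes of 0.953 to 0.965 against 0.977 to 0.995 for pairs without it. Xist, a female transcript, stood at 839, 881 and 591 CPM in Nfkb2-/- replicates 1 to 3 and 1.94 to 16.4 CPM in wild type libraries. The 4 Y-linked genes summed to 40.0, 137 and 275 CPM in these Nfkb2-/- libraries, and to 464 to 497 CPM in wild type libraries. Each Nfkb2-/- library thus held both Xist and Y-linked counts, and whether it mixed cells of both sexes was not tested. Sex of the cells and genotype cannot be told apart. All 6 Treg markers (Foxp3, Il2ra, Ctla4, Ikzf2, Cd4 and Tnfrsf18) were present, summing to 3848 to 4229 CPM in Nfkb2-/- libraries and 2971 to 4722 CPM in wild type libraries. Summed markers of other cells were low by comparison: the 10 B cell markers ran from 29.8 to 52.3 CPM in Nfkb2-/- and from 80.7 to 261 CPM in wild type, Cd8a with Cd8b1 from 10.4 to 13.7 CPM and from 13.3 to 22.7 CPM, the 6 gamma-delta T cell markers from 4.95 to 7.39 CPM and from 5.33 to 5.95 CPM, and the 7 NK and NKT markers from 20.6 to 26.8 CPM and from 7.16 to 15.9 CPM. The 4 thymocyte genes summed to 0.488 to 0.661 CPM in Nfkb2-/- and to 0.587 to 2.37 CPM in wild type, with Rag2 at 0 counts in every library. The 4 plasma cell markers summed to 31.8 to 43.0 CPM in Nfkb2-/- and 24.6 to 104 CPM in wild type, the 7 myeloid markers to 15.5 to 37.7 CPM and 12.4 to 61.6 CPM, and the 5 dendritic cell markers to 1.98 to 9.995 CPM and 2.74 to 34.1 CPM. By edgeR on the whole-transcriptome scale, where 1.42% of all genes were called, 0 of the 10 B cell markers rose and 2 fell, and of the 3 NK and NKT markers tested 1 rose and 0 fell. With library sizes set to the Trbv counts, where 0.42% of all genes were called, 5 of the B cell markers and 0 of the NK and NKT markers were called, all of the 5 lower in Nfkb2-/-. In either scaling 9 of the 10 B cell markers did not overlap between genotypes, against 20.6% of all genes on the whole-transcriptome scale and 14.6% on the Trbv scale. The part of these cells and of wild type replicate 1 in the values below was not tested.

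The Trbv13 segments and the Trbv12 segments form close families, while no other pair of V exons was above 76.0% identity. In close families the letters matter for the counts, since a read that fits more than one segment may be split or dropped. All 35 segments lie on mouse chromosome 6. The V exon, the exon that encodes the variable domain, is shown for the 3 Trbv13 segments because they include the most used segment. They lie at chr6:41116175-41116468, chr6:41121539-41121832 and chr6:41130292-41130585 (GRCm38, plus strand, GENCODE M21 transcripts), are 294 bases each, and capitals mark the 49 bases that are not the same in all of them.
Trbv13-1: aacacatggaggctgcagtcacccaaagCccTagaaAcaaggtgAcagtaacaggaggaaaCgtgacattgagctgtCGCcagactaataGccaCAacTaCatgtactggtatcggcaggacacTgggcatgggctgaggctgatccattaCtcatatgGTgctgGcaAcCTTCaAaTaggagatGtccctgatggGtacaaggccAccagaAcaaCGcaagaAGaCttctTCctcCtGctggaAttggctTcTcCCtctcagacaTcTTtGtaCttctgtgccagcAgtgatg
Trbv13-2: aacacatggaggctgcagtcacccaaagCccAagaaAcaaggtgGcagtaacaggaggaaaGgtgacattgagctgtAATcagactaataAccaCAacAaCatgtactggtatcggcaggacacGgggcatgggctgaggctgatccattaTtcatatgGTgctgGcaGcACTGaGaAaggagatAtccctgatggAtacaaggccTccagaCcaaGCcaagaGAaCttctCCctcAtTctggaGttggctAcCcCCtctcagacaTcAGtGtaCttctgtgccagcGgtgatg
Trbv13-3: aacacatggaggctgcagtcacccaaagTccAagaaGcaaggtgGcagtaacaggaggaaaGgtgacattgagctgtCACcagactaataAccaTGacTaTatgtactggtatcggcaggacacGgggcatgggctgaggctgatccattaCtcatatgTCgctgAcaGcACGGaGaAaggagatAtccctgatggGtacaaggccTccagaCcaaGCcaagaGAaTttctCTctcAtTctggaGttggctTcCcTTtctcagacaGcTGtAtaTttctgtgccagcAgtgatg
Trbv13-2 and Trbv13-3 were identical at 91.8% of bases, with a longest identical run of 50 bases. Trbv13-1 matched Trbv13-2 at 88.8% and Trbv13-3 at 86.1%. The older names in RefSeq are Vβ8.3, Vβ8.2 and Vβ8.1 for Trbv13-1, Trbv13-2 and Trbv13-3.

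A second pair of closely related segments is shown because 1 of them, Trbv12-1, had shares that did not overlap between genotypes and the other did. Trbv12-1 (older name Vβ5.2, chr6:41113775-41114067, plus strand) and Trbv12-2 (Vβ5.1, chr6:41119072-41119364, plus strand) differ at 32 of 293 bases, which are in capitals.
Trbv12-1: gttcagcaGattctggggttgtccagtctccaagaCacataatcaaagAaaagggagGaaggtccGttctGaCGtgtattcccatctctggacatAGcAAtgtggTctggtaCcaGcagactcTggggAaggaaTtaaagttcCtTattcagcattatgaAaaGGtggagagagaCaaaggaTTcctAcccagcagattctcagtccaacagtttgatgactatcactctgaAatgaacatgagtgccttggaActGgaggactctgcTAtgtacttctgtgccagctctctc
Trbv12-2: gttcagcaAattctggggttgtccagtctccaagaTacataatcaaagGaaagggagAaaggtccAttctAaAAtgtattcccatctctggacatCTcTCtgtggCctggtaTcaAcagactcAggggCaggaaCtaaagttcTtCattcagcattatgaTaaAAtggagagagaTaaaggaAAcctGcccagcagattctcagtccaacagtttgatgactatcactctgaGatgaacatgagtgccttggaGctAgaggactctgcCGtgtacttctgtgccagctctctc
They were identical at 89.1% of bases, with a longest identical run of 44 bases.

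The use of segments was uneven. To compare levels between segments, counts were divided by exon length and given as a percent of the summed length-scaled Trbv counts. Exon length covers all annotated exons, such as 566 bases for Trbv19 and 335 for Trbv20, whereas V exons of genes span 291 to 304 bases. The order thus depends in part on annotation: Trbv19 ranked 8 by mean unscaled share and 12 when scaled by length. On this length-scaled level Trbv13-2 was highest, at 15.7% ± 0.18 in Nfkb2-/- Tregs and 17.6% ± 4.46 in wild type Tregs (SD, n = 3 each). Trbv16 (older name Vβ11) followed at 9.99% ± 0.719 in Nfkb2-/- and 8.59% ± 1.22 in wild type, then Trbv13-1 at 9.17% ± 0.548 and 8.51% ± 1.49, and Trbv15 (Vβ12) at 8.92% ± 1.14 and 7.49% ± 1.54. Over all 6 libraries, the order went on with Trbv13-3 (7.13%), Trbv3 (6.79%), Trbv12-1 (5.78%), Trbv12-2 (5.77%), Trbv1 (5.14%) and Trbv31 (5.03%), as means of length-scaled level. Of 18 adjacent pairs among the 19 segments that passed the count filter, 2 did not overlap over the 6 libraries, Trbv13-2 above Trbv16 and Trbv14 above Trbv30. The other 16 neighbouring pairs overlapped over the libraries.

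**Figure D1:**
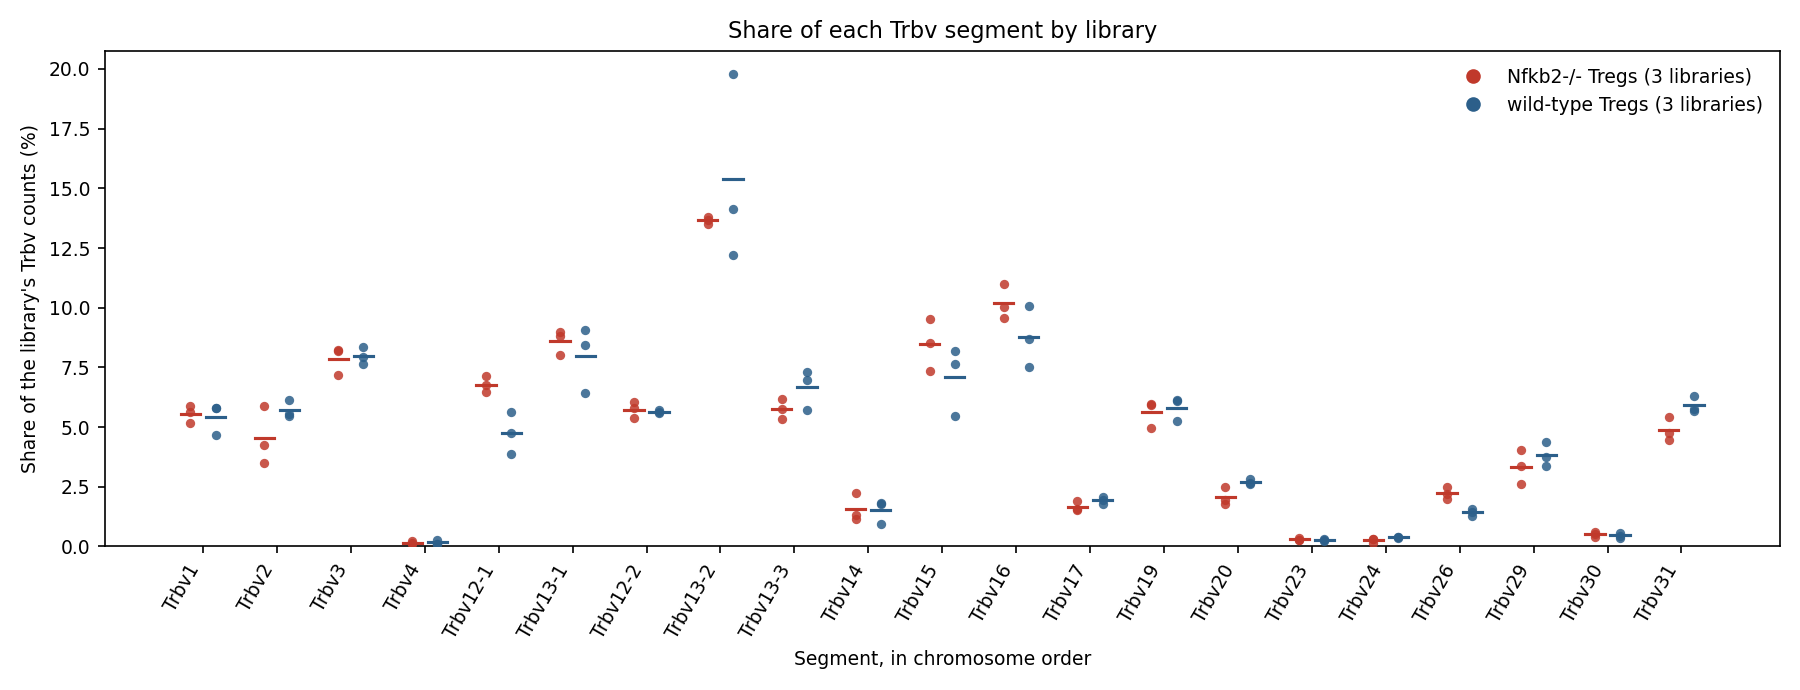
Share of each library's Trbv counts (percent, y axis) for the 21 segments with at least 20 counts over the 6 libraries, in chromosome order (x axis); points are libraries and lines are means, Nfkb2-/- left of wild type. Trbv13-2 was the largest in every library, and its highest point is wild type replicate 1 at 19.8%.

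In unscaled shares, the 10 most abundant segments together made up 75.6%, 79.5% and 79.6% of Trbv counts in Nfkb2-/- Tregs, and 76.3%, 75.8% and 74.4% in wild type Tregs. Trbv13-2 took 13.5%, 13.8% and 13.7% in Nfkb2-/- Tregs and 19.8%, 14.1% and 12.2% in wild type Tregs. The Nfkb2-/- libraries were nearly alike, whereas wild type replicate 1 lay above all others, with a Wilson 95% interval of 18.4% to 21.2% against 12.4% to 14.7% in Nfkb2-/- replicate 1. Trbv16 took 9.57%, 11.0% and 10.0% in Nfkb2-/- Tregs and 10.1%, 8.69% and 7.53% in wild type Tregs. Trbv13-1 took 8.03%, 8.99% and 8.80% in Nfkb2-/- Tregs and 6.44%, 8.42% and 9.08% in wild type Tregs. Both sets of shares overlapped between genotypes. For the 10 most abundant segments and the 5 whose shares did not overlap between genotypes (14 in all), the Wilson 95% intervals of single libraries reached 0.142 to 1.39 percentage points to either side, and they cover counting error only.

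Trbv3 (Vβ16) took 7.17%, 8.23% and 8.17% in Nfkb2-/- Tregs and 7.63%, 7.93% and 8.35% in wild type Tregs. Trbv15 took 8.50%, 7.36% and 9.54% in Nfkb2-/- Tregs and 5.46%, 8.17% and 7.65% in wild type Tregs. Trbv13-3 took 6.19%, 5.76% and 5.35% in Nfkb2-/- Tregs and 5.71%, 6.98% and 7.30% in wild type Tregs. The genotypes overlapped in each of these, and in Trbv15 the lowest value was again in wild type replicate 1. Trbv19 (Vβ6) took 4.98%, 5.91% and 5.95% in Nfkb2-/- Tregs and 5.24%, 6.12% and 6.10% in wild type Tregs. Trbv12-2 took 5.36%, 6.05% and 5.79% in Nfkb2-/- Tregs and 5.71%, 5.60% and 5.65% in wild type Tregs. Trbv1 (Vβ2) took 5.86%, 5.63% and 5.16% in Nfkb2-/- Tregs and 4.67%, 5.82% and 5.82% in wild type Tregs. These segments also overlapped between genotypes. Within same-numbered libraries Trbv19 was lower in Nfkb2-/- in 3 of 3 pairs. With the replicate block its log2 fold change in share was -0.0524 (edgeR adjusted p = 0.972). How many of all genes kept their direction in these pairs was not counted, so the pairs add no result.

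No Trbv segment passed the test between genotypes. Of the 35 members, 19 passed the filter on low counts, and 0 of them were called at an adjusted p of 0.05 with library sizes scaled to the whole transcriptome (edgeR quasi-likelihood test, Benjamini-Hochberg over all 13347 genes tested), where 1.42% of all genes were called, 1.01% higher and 0.405% lower in Nfkb2-/- Tregs. At an unadjusted p of 0.05, 3 of the 19 passed, against 13.6% of all genes. With the Trbv count of each library as its size, so that the test is on shares, 0 of 19 were called and 0 had an unadjusted p under 0.05, where 0.42% of all genes were called (0.307% higher and 0.112% lower) and 8.29% had such a p. The spread in this fit was estimated over all 13347 genes scaled to Trbv counts, so its p-values and intervals also draw on other genes. The common biological coefficient of variation was 0.341 on this scale, against 0.228 with TMM, which limits what 0 calls on shares can show. DESeq2, run on the 28 members with a count, called 0 in either scaling, with 2 members and 0 members at an unadjusted p under 0.05. The members' log2 fold changes in share ran from -0.51 (Trbv24) to 0.64 (Trbv26) with a median of -0.02, beside a median of -0.28 for all genes on the same Trbv scale. Scaling to Trbv counts itself holds the members' median near 0, so these 2 medians are no contrast. Without wild type replicate 1 the median of all genes on this scale was 0.06. On the whole-transcriptome scale the members' log2 fold changes ran from -0.36 to 0.78 with a median of 0.11, beside -0.03 for all genes. The intervals leave room for sizeable differences: for the most used segment, Trbv13-2, the 95% interval of the log2 fold change in share was -0.80 to 0.46 (edgeR).

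**Figure D2:**
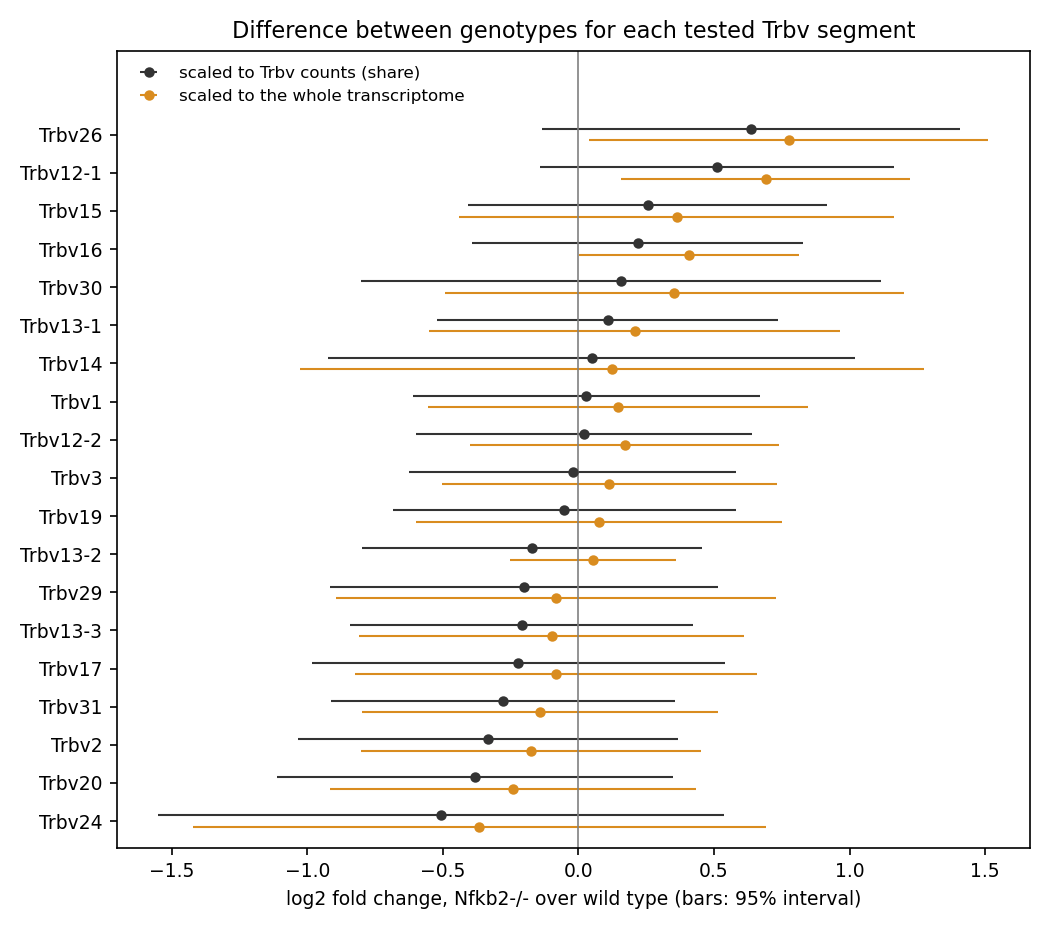
Log2 fold change of each of the 19 tested segments, Nfkb2-/- over wild type (x axis), with 95% intervals from edgeR, in shares (black) and on the whole-transcriptome scale (orange). On the share scale every interval includes 0; on the whole-transcriptome scale those of Trbv26, Trbv12-1 and Trbv16 lie above 0, with adjusted p of 0.343, 0.234 and 0.364.

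Although none passed, 5 of the 19 tested segments had shares that did not overlap between genotypes (Trbv12-1 and Trbv26 higher, Trbv20, Trbv24 and Trbv31 lower in Nfkb2-/- Tregs), against 14.6% of all genes on the same scale. In CPM 3 did not overlap (Trbv12-1, Trbv16 and Trbv26), against 20.6% of all genes. Trbv12-1 took 6.46%, 6.76% and 7.13% in Nfkb2-/- Tregs and 5.62%, 3.89% and 4.77% in wild type Tregs. Its log2 fold change in share was 0.51 (SE 0.294, 95% interval -0.14 to 1.17, edgeR adjusted p = 0.668), and on the whole-transcriptome scale 0.69 (0.16 to 1.22, adjusted p = 0.234). Its close relative Trbv12-2 had a log2 fold change in share of 0.02 (95% interval -0.60 to 0.64). Of the counts of both, Trbv12-1 held 54.6%, 52.8% and 55.2% in Nfkb2-/- Tregs and 49.6%, 41.0% and 45.8% in wild type Tregs. This ratio reuses the counts by which Trbv12-1 was chosen, so its lack of overlap is not a separate result. Without wild type replicate 1, the share of Trbv12-1 had a log2 fold change of 0.65 (edgeR adjusted p = 0.0746).

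Trbv26 (Vβ3.1) took 2.49%, 2.21% and 1.97% in Nfkb2-/- Tregs and 1.45%, 1.25% and 1.58% in wild type Tregs. These shares come from 84, 84 and 72 counts in Nfkb2-/- and 46, 41 and 63 counts in wild type, and the log2 fold change in share was 0.64 (SE 0.347, 95% interval -0.14 to 1.41, edgeR adjusted p = 0.665). Trbv24, which RefSeq lists as Vβ3.2, lay on the other side in value, with 0.326%, 0.315% and 0.165% in Nfkb2-/- Tregs and 0.347%, 0.398% and 0.401% in wild type Tregs. With 6 to 16 counts a library its log2 fold change in share, -0.51, has an interval of -1.55 to 0.54 (edgeR), and without Nfkb2-/- replicate 3 it was -0.25. Trbv20 (Vβ15) took 1.95%, 2.47% and 1.78% in Nfkb2-/- Tregs and 2.62%, 2.82% and 2.66% in wild type Tregs, a log2 fold change in share of -0.38 (95% interval -1.11 to 0.35). Trbv31 (Vβ14), the one segment that lies in the opposite orientation beyond the constant genes, took 4.44%, 4.76% and 5.40% in Nfkb2-/- Tregs and 5.74%, 5.66% and 6.32% in wild type Tregs, a log2 fold change in share of -0.28 (-0.91 to 0.35). With 3 against 3 libraries, shares that do not overlap fix the exact two-sided permutation p at 0.1, the smallest possible, so that p adds nothing to how these 5 segments were chosen. Without wild type replicate 1, an alternative chosen after seeing the data, 9 of 19 segments did not overlap, against 27.8% of all genes.

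The remaining segments above 1% of counts overlapped between genotypes. Trbv2 (Vβ4) took 5.89%, 4.26% and 3.48% in Nfkb2-/- Tregs and 6.15%, 5.48% and 5.54% in wild type Tregs, and its spread in Nfkb2-/- (SD 1.23 percentage points) was as large as the difference of the means. It was lower in Nfkb2-/- in 3 of 3 same-numbered pairs, with a log2 fold change in share of -0.36 under the replicate block (edgeR adjusted p = 0.849). Other segments also kept their direction in 3 of 3 pairs, such as Trbv23, which was higher in Nfkb2-/-. How many of all genes did so was not counted. Trbv29 (Vβ7) averaged 3.34% ± 0.7 in Nfkb2-/- and 3.84% ± 0.499 in wild type, Trbv17 (Vβ9) 1.66% ± 0.204 and 1.93% ± 0.128, and Trbv14 (Vβ13) 1.57% ± 0.601 and 1.51% ± 0.488 (SD, n = 3 each). Trbv14 was highest in Nfkb2-/- replicate 1 at 2.25% and lowest in wild type replicate 1 at 0.946%.

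The summed Trbv level and the evenness of use did not differ beyond the spread of libraries. Summed Trbv counts were at 279, 267 and 296 CPM in Nfkb2-/- Tregs, and at 171, 258 and 334 CPM in wild type Tregs. The wild type libraries lay both below and above all Nfkb2-/- libraries (mean 281 and SD 14.6 CPM in Nfkb2-/- Tregs, mean 254 and SD 81.8 CPM in wild type Tregs, n = 3 each; exact permutation p = 0.7, two-sided). Without wild type replicate 1 the difference of the means, 26.5 CPM in favour of Nfkb2-/-, turned to -15.3 CPM. The effective number of segments, the number of equally used segments that would give the same Shannon entropy, was 15.9, 15.3 and 15.3 in Nfkb2-/- Tregs and 14.7, 15.7 and 15.9 in wild type Tregs (exact permutation p = 0.8). Between 23 and 26 of the 35 segments had a count in any one library. Trbv counts per 100 counts of the constant genes Trbc1 and Trbc2 were 44.8, 42.8 and 44.5 in Nfkb2-/- Tregs and 36.9, 42.8 and 39.6 in wild type Tregs, with wild type replicate 1 lowest (exact permutation p = 0.2).

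**Figure D3:**
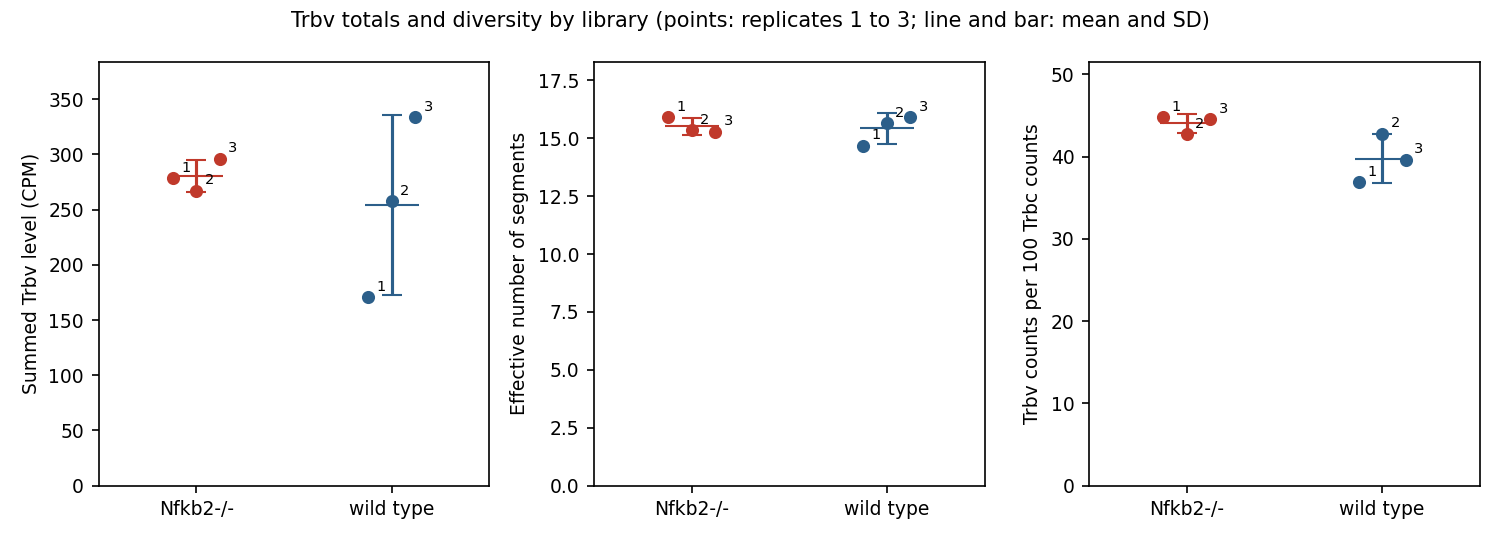
Summed Trbv level (CPM), effective number of segments and Trbv counts per 100 Trbc counts (y axes), Nfkb2-/- left of wild type; points are libraries with their replicate number, and the line and bar are the mean and SD. Wild type replicate 1 is the lowest library in all 3 measures, at 171 CPM, 14.7 segments and 36.9 counts.

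Whole profiles of shares were compared between libraries by a distance, 0.5 of the summed absolute differences, which is the percent of counts that would have to move to another segment. Across genotypes this distance ran from 6.37 to 11.0 percentage points over 9 pairs. Within genotypes it ran from 4.49 to 6.83 over 3 pairs of Nfkb2-/- libraries and from 4.15 to 12.1 over 3 pairs of wild type libraries. The wide wild type range came from replicate 1, whose distances to the other wild type libraries were 10.3 and 12.1, while wild type replicates 2 and 3 were 4.15 apart. Without wild type replicate 1, the 6 pairs across genotypes ran from 6.37 to 9.22, partly overlapping the pairs within Nfkb2-/-. Relative to counting error, wild type replicates 2 and 3 differed with a chi-square per degree of freedom of 1.08, close to what counting alone gives. Pairs of Nfkb2-/- libraries gave 1.48 to 2.98, and pairs across genotypes without wild type replicate 1 gave 3.01 to 5.15. These values compare libraries, not conditions, and pairs share libraries, so no test was made of them.

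**Figure D4:**
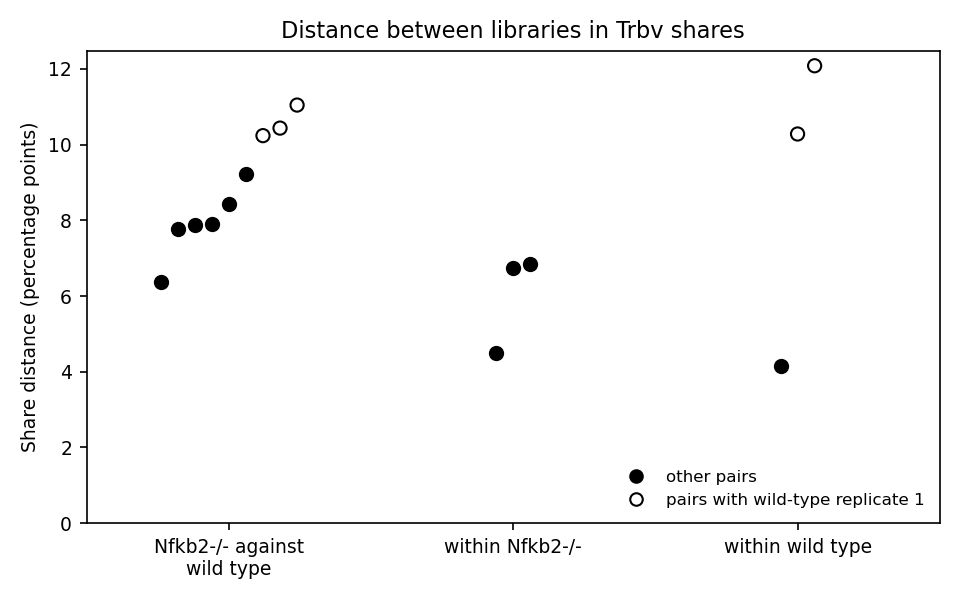
Distance between libraries in Trbv shares (percentage points, y axis) for pairs across genotypes, within Nfkb2-/- and within wild type; each point is a pair, and open points are pairs with wild type replicate 1. All open points lie at 10.2 or above, and closed points reach from 4.15 to 9.22.

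Annotation and level went together in part. Of the 22 segments annotated as genes, 20 had at least 20 counts over the 6 libraries, and of 13 annotated as pseudogenes 1 did, Trbv24. The pseudogenes together held 0.415%, 0.421% and 0.302% of Trbv counts in Nfkb2-/- Tregs and 0.442%, 0.52% and 0.426% in wild type Tregs, most of it from Trbv24. No count was seen for 7 of them (Trbv6, Trbv7, Trbv8, Trbv10, Trbv18, Trbv27 and Trbv28), where the floor of 3 counts is a share of 0.0753% to 0.0946% in a single library. Trbv8, Trbv9 and Trbv10 share an interval with the gene AC153851.1, so for them a low count or 0 gives no such limit. Low genes were Trbv30 (Vβ18) with 104 counts over all libraries, Trbv23 (Vβ20) with 61, Trbv4 (Vβ10) with 34, Trbv5 (Vβ1) with 15 and Trbv21 (Vβ19) with 10. Trbv4 and Trbv5 share an interval with the gene 5830405F06Rik, so their counts are uncertain.

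The V exons of Trbv26 and Trbv24 are shown because the shares of both did not overlap between genotypes, in opposite directions, and GENCODE annotates only Trbv26 as a gene, whereas RefSeq lists both as V segments. Trbv26 lies at chr6:41227696-41227993 and Trbv24 at chr6:41218260-41218557 (GRCm38, plus strand), and capitals mark the 78 of 298 bases at which they differ.
Trbv26: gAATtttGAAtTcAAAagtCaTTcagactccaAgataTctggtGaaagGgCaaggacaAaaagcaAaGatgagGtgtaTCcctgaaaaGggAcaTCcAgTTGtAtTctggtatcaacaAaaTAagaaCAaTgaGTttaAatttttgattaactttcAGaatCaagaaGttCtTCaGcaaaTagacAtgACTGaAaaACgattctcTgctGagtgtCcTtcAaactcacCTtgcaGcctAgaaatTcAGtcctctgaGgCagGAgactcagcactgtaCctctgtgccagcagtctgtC
Trbv24: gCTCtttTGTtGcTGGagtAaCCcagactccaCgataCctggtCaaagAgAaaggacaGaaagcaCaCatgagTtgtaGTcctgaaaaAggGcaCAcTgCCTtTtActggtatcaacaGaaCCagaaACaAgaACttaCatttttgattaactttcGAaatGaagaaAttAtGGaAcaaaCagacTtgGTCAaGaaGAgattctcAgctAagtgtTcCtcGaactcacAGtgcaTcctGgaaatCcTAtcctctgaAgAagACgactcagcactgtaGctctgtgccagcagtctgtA
Counted from 1 at the first base of the V exon, Trbv24 carries C278G relative to Trbv26, which makes a stop codon TAG at base 276 in the frame of the conserved cysteine codon near the 3′ end. The frame was set by the last TGTGC in the last 30 bases, which 19 of 22 genes and 7 of 13 pseudogenes hold. A stop codon stood in that frame in all 7 of these pseudogenes and in 2 of the 19 genes, Trbv4 and Trbv23. In Trbv4 it is a TAA at base 291 of 295. In Trbv23 the annotated reading frame holds no stop and differs from the frame set by TGTGC. Trbv29, a pseudogene in RefSeq but a gene in GENCODE, held no stop in its frame and took 3.34% and 3.84% of counts in Nfkb2-/- and wild type Tregs. The letters TGTGCCAGC, searched on the coding strand, were in the last 30 bases of 17 of all 35 segments (48.6%), 13 of 22 genes and 4 of 13 pseudogenes.

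Along the locus, well used segments lay both far from and near to the D segments. Trbv1, the farthest, lies 641 kb upstream of Trbd1 and had a length-scaled level of 5.14% over all libraries. The cluster from Trbv12-1 to Trbv16, 419 to 381 kb upstream, held the 5 highest levels (Trbv13-2, Trbv16, Trbv13-1, Trbv15 and Trbv13-3). Not all of its segments were high, with Trbv14 at 1.63% and the pseudogene Trbv12-3 at 0.0348%. The nearest upstream segment, Trbv30 at 251 kb, was at 0.569%. Trbv31, on the minus strand downstream of Trbd1, was at 5.03%. Across the 21 genes upstream of Trbd1, length-scaled level and distance had a Spearman rho of 0.27 and a Pearson r of 0.22, a description only, since neighbouring segments share family and library.

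**Figure D5:**
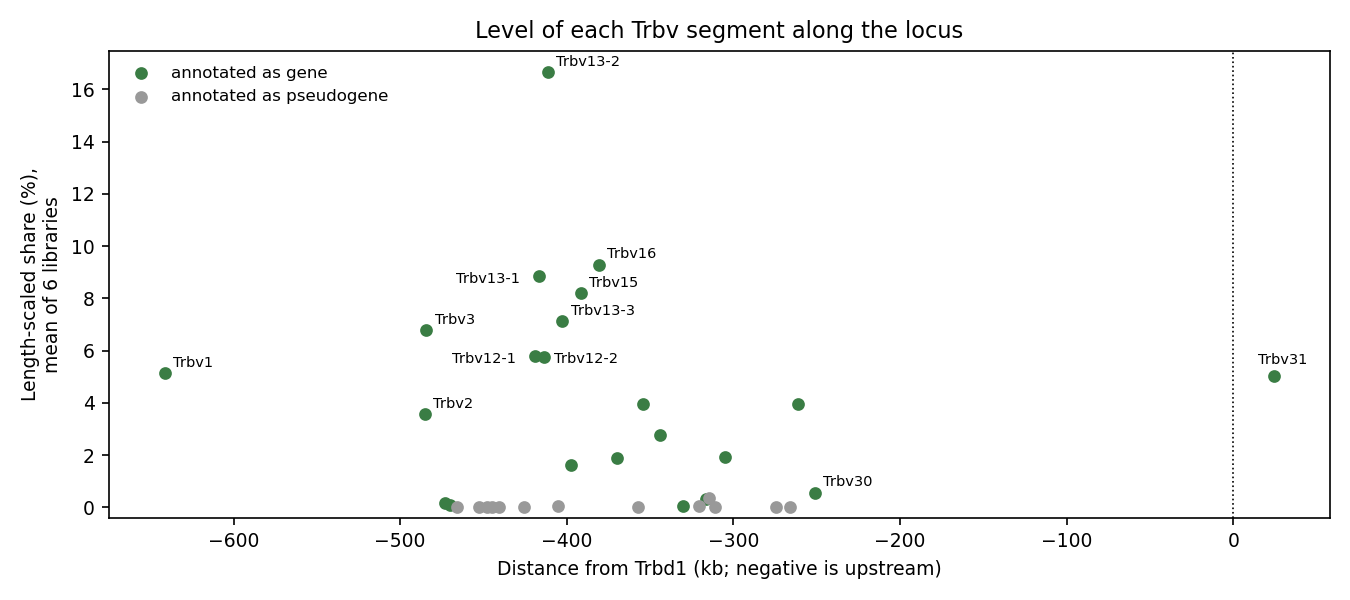
Length-scaled share of each segment (percent, mean of 6 libraries, y axis) against distance from Trbd1 (kb, x axis, negative values upstream), with genes in green and pseudogenes in grey. The highest point is Trbv13-2 at 16.6%, within the cluster 419 to 381 kb upstream, and pseudogenes lie at or near 0.

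The partners of Trbv in the receptor were not called either. Of the 7 genes of the T cell receptor complex (Trac, Trbc1, Trbc2, Cd3d, Cd3e, Cd3g and Cd247), 0 rose and 0 fell by the whole-transcriptome test, with log2 fold changes from -0.09 to 0.21, and 0 had an unadjusted p under 0.05. The constant gene Trbc1 stood at 261, 283 and 283 CPM in Nfkb2-/- Tregs and 193, 267 and 360.2 CPM in wild type Tregs, and Trbc2 at 360.3, 342 and 382 CPM in Nfkb2-/- Tregs and 270, 336 and 483 CPM in wild type Tregs. Trbc1 made up 42.0%, 45.2% and 42.5% of both constant genes in Nfkb2-/- Tregs and 41.7%, 44.3% and 42.7% in wild type Tregs. Of 16 D and J segments of the beta chain, 12 passed the count filter and 0 were called. Their log2 fold changes on the whole-transcriptome scale ran from -0.82 to 0.002, with 1 of the 12 positive. The median was -0.257, beside -0.035 for all genes, and this lean to lower values was not tested. An unadjusted p under 0.05 was found for 2 of the 12, against 13.6% of all genes, and 3 of the 12 (Trbj1-4, Trbj2-6 and Trbj2-7) did not overlap between genotypes in CPM, against 20.6% of all genes. Those with such a p were Trbj2-7, at 4.62, 4.00 and 3.09 CPM in Nfkb2-/- and 8.50, 5.37 and 6.79 CPM in wild type (log2 fold change -0.82, edgeR adjusted p = 0.234), and Trbj2-6, an annotated pseudogene, at 2.64, 1.69 and 2.36 CPM in Nfkb2-/- and 3.98, 4.58 and 3.02 CPM in wild type (log2 fold change -0.80, edgeR adjusted p = 0.311). Trbj2 segments made up 37.9%, 35.5% and 32.5% of Trbj counts in Nfkb2-/- Tregs and 39.0%, 39.6% and 43.9% in wild type Tregs (exact permutation p = 0.1, two-sided, the smallest possible). This share reuses the counts of Trbj2-6 and Trbj2-7, so its lack of overlap, which fixes that p, is not a separate result. Trbj counts per 100 Trbv counts were 13.6, 16.8 and 12.7 in Nfkb2-/- Tregs and 32.2, 18.9 and 14.0 in wild type Tregs (exact permutation p = 0.2, two-sided). They were highest in wild type replicate 1 and lower in Nfkb2-/- in 3 of 3 same-numbered pairs. The difference of the means was -7.35, and -2.09 without that library.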

How the data were processed

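The authors deposited whole-number counts of reads per Ensembl gene, not normalized, 1 file for each of 6 libraries. Per the submitters' processing notes the tools were FastQC, HISAT2, HTSeq and DESeq2 on GRCm38, with no versions, and how reads with several matches were counted is unknown here. Libraries were unstranded, per the labels' design text, so reads of overlapping genes on opposite strands cannot be told apart.

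Symbols, exon lengths and V exons came from GENCODE M21 (55394 of 55573 identifiers matched, 179 did not), and older Vβ names from RefSeq (GRCm38.p6) for 24 of 35 segments. Members and lists were chosen with earlier results of these data known. The segments given with all their values are the 10 with the highest mean share, any that were called, and those with at least 20 counts whose shares did not overlap. Trbv2 was added after its values were seen. The sequences shown, the ratio of Trbv to Trbc counts and the distances were chosen after seeing the data.

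The main test was edgeR 4.0.16 under R 4.3.3 (robust quasi-likelihood, filterByExpr with genotype as group, genotype only, Benjamini-Hochberg over all 13347 genes tested, threshold 0.05), once with TMM and once with the Trbv count as library size. The common biological coefficient of variation was 0.228 and 0.341. Intervals at 95% used the test's own degrees of freedom. Values of 1 per library used exact two-sided permutation tests, whose smallest p is 0.1. DESeq2 1.42.0, other filters and scalings, the block and each library left out were alternatives. V exons were aligned with Biopython 1.88, and figures drawn with matplotlib 3.10.9. The code was tested on simulated data. Those data had the same spread for every gene, so they do not show how small a change in share these libraries could reveal.

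The labels call the samples biological repeats, name no batch and give both genotypes replicate numbers 1 to 3. Same-numbered libraries deviated together from their genotype means (correlations 0.364, 0.267 and 0.111, each above 0.1), which met the limit for pairs, although Nfkb2-/- replicate 3 was closer to wild type replicate 2 (0.251) than to its own number. The main tests are unpaired, and the fit with the replicate block is the paired alternative. No 2 libraries agreed within sampling noise over genes with at least 20 counts (chi-square per degree of freedom 6.73 to 132). Depth was 12005273 to 17278521 counts, of which 0.0183% to 0.0319% were Trbv, so counting error limits single shares. Intervals and floors (3 counts) cover counting error only.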

Additional observations from a re-analysis of the deposited data

How the results depend on the processing

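The count of called Trbv segments was 0 under every alternative run: DESeq2, the replicate block, each library left out, scaling by RLE or upper quartiles, and filtering at 1 CPM or not at all, in both scalings where they apply. The smallest edgeR adjusted p of a member ran from 0.0993 to 0.687 without single libraries on the whole-transcriptome scale and from 0.0746 to 0.974 on shares; with the replicate block it was 0.108 and 0.713, so the pairing changed no call (0 called). In these, 3 and 0 members had an unadjusted p under 0.05 with the block.

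Without single libraries the difference in summed Trbv level ran from -15.3 to 66.5 CPM and that in the effective number of segments from -0.28 to 0.34; the first turned sign without wild type replicate 1, the second without it or Nfkb2-/- replicate 1. Log2 fold changes near 0 also turned sign. In shares they ran from -0.0686 to 0.0817 for Trbv1, -0.0556 to 0.0407 for Trbv3, -0.0239 to 0.21 for Trbv13-1, -0.0199 to 0.066 for Trbv12-2, -0.31 to 0.0535 for Trbv13-2 and -0.12 to 0.028 for Trbv19. On the whole-transcriptome scale they ran from -0.15 to 0.44 for Trbv1, -0.13 to 0.40 for Trbv3, -0.11 to 0.57 for Trbv13-1, -0.0495 to 0.41 for Trbv12-2, -0.0106 to 0.13 for Trbv13-2, -0.39 to 0.22 for Trbv13-3, -0.20 to 0.35 for Trbv19 and -0.38 to 0.17 for Trbv31. Differences in share ran from -0.269 to 0.31 percentage points for Trbv1, -0.301 to 0.229 for Trbv3, -0.142 to 1.18 for Trbv13-1, -0.0777 to 0.265 for Trbv12-2, -3.30 to 0.489 for Trbv13-2 and -0.495 to 0.115 for Trbv19. The cause was not tested.

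Trbv12-1 and Trbv26 kept a positive log2 fold change, and Trbv20 and Trbv24 a negative one (for Trbv24 from -0.66 to -0.25 in shares and -0.65 to -0.085 on the whole-transcriptome scale), in both scalings without any single library; Trbv31 did so in shares.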
